A study of Mus musculus with 6 samples.

Results

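The Obox genes (oocyte-specific homeobox) encode paired-like homeodomain transcription factors of the mouse germ line and early embryo. Their transcripts were measured in libraries made from single oocytes of the mouse, taken in the germinal vesicle (GV) stage of arrested meiosis, with an intact nucleus. The libraries were made with Smart-seq3, which copies polyadenylated RNA of a cell into full-length cDNA and amplifies it by PCR. The members were the 5 genes Obox1, Obox2, Obox3, Obox5 and Obox6, taken by symbol from the 25239 genes of the count table over all 6 libraries. A sixth row of the table, Obox7, belongs to the same gene cluster and is given beside them.

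A homeodomain binds DNA, and the Obox proteins act together when the embryo switches on its own genome after fertilization. Obox1, Obox2, Obox5 and Obox7 are known as the maternal members, whose transcripts are stored in the growing oocyte. Obox3 is known as a member expressed after fertilization, from the embryonic genome. Obox6 has been studied in oocytes, early embryos and the reprogramming of somatic cells. Embryos without several of these genes together arrest around the time of genome activation.

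The study set 3 libraries of water-injected oocytes against 3 libraries of oocytes that received phthalate metabolites, a mixture of compounds that the body forms from phthalate plasticizers. All oocytes came from female CD-1 mice, an outbred strain, aged 4 to 6 weeks. They were injected inside their cumulus complexes, cultured in medium with 10% serum and 200 mIU/mL follicle-stimulating hormone at 37 °C, and collected as GV oocytes. The dose and the compounds of the mixture are not given in the sources used here. No label names the animal or the culture of a library, and the protocol can also be read as a single oocyte per group, so each group counted as 1 sample. No difference between the groups was therefore tested, and the spread between libraries may be technical.

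A library held between 252267 and 300917 gene counts. For the labelled cell type, 19 of 20 oocyte markers had counts and together had 37846 to 42877 CPM in a library. CPM is 1000000 times the share of a count in its library total. Sohlh1 was the oocyte marker at 0. Of 20 cumulus and granulosa markers 8 had any count, with 0 to 7 counts per library in all. Theca and stroma markers had 0 to 4 counts per library, and the 5 blood markers had 0.

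The 6 Obox genes lie on chromosome 7 within 1180 kb (positions from RefSeq, build GRCm38, the assembly also called mm10). Obox7 lies at chr7:14659708-14665996, Obox2 at chr7:15388851-15398545, Obox1 at chr7:15547257-15556846 and Obox5 at chr7:15750370-15759274, all on the plus strand. Obox3, at chr7:15625306-15639777, and Obox6, at chr7:15833250-15839679, are on the minus strand. The same stretch holds 41 Obox pseudogenes in RefSeq, and 0 of them are rows of the count table. RefSeq places no other gene over any of the 6. GENCODE M21 has longer transcripts of Obox1 and Obox3, by which Obox1 overlaps Obox2 on the same strand and Obox3 on the opposite strand. Whether the counting used strand is not given in the sources used here.

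Parts of the copies are nearly alike, and the following coding stretch is an example chosen for its likeness. It does not show how well whole reads can be assigned. It is the 60-base stretch of an Obox1 coding exon that is best kept in the other 5 genes (GENCODE M21 longest protein-coding transcripts). Capitals mark bases that differ from Obox1.
Obox1: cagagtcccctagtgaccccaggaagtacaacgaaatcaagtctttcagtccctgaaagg
Obox2: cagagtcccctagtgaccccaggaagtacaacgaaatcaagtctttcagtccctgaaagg
Obox5: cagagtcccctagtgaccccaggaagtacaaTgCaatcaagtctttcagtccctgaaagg
Obox7: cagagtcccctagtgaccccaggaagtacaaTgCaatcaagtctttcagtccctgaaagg
Obox3: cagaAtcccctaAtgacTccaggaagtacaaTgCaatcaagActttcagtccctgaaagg
Obox6: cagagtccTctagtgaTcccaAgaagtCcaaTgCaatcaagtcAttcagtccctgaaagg
The Obox1 stretch is chr7:15555276-15555335 (GRCm38, plus strand), in exon 2 of 4. Obox2 had the same 60 bases at chr7:15396959-15397018. Obox5 (chr7:15757651-15757710) and Obox7 (chr7:14664151-14664210) differed from Obox1 at 2 bases each and shared both differences. On the minus strand, Obox3 (chr7:15627165-15627224) differed at 6 bases and Obox6 (chr7:15834749-15834808) at 7.

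Over whole transcripts the order of likeness was similar. The longest transcripts of Obox1 and Obox2 were identical at 1447 of 1459 aligned bases (99.2%). Obox1 and Obox5 were identical at 94.0% of 1187 aligned bases, and Obox5 and Obox7 at 95.4% of 1188. Obox6 stood farthest from Obox1, with 80.4% of 1165 aligned bases. Of the 1363 windows of 150 bases in the Obox1 transcript, 428 also occur letter for letter in a transcript of Obox2. That is 31.4% of the Obox1 windows and 32.7% of those of Obox2, and no other gene shares any. Obox5, Obox6 and Obox7 had no 150-base window in common with another gene. For Obox3, 91.5% of the windows were found in no other gene, and the rest occur in the pseudogene Obox3-ps3. The division of counts between Obox1 and Obox2 is therefore uncertain, and the count of Obox5 is less exposed to it.

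**Figure D1:**
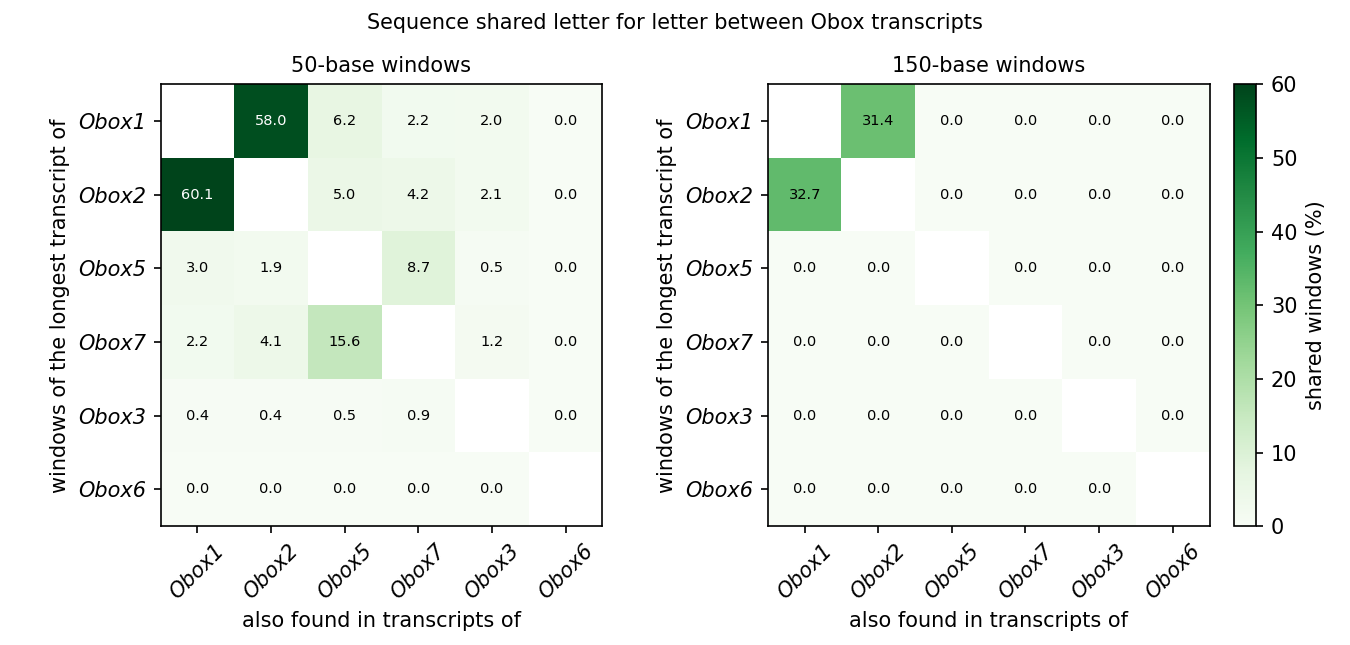
Percent of the windows of each gene's longest transcript (rows) that also occur letter for letter in any transcript of another Obox gene (columns), for windows of 50 bases (left) and 150 bases (right). Obox1 and Obox2 share 58.0% and 60.1% of their 50-base windows and 31.4% and 32.7% of their 150-base windows, and no other pair shares a 150-base window.

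Obox1, Obox2 and Obox5 were abundant in every oocyte library, while Obox3 and Obox6 were at or near 0. The 3 abundant members ranked 94, 87 and 88 by summed count among 12804 genes with any count. Together the 5 members had 6012 counts of 1676410 (3051 in the water libraries and 2961 in the phthalate libraries).

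Obox1 had 243, 337 and 395 counts in water libraries 1, 2 and 3, and 396, 279 and 267 counts in phthalate libraries 1, 2 and 3. In CPM these were 902, 1120 and 1392 for water and 1570, 946 and 971 for phthalate. Its highest level was in phthalate library 1 and its lowest in water library 1, a 1.74-fold range, and the groups overlapped.

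Obox2, the near copy of Obox1, had 283, 428 and 358 counts in the water libraries and 346, 317 and 325 in the phthalate libraries. Its CPM was 1050, 1422 and 1262 against 1372, 1074 and 1182. The phthalate values lay inside the range of the water values, and the range over all libraries was 1.35-fold.

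Obox5 had 263, 385 and 359 counts in the water libraries and 350, 290 and 389 in the phthalate libraries. Its CPM was 976, 1279 and 1265 against 1387, 983 and 1415. The highest value was in phthalate library 3, and the groups overlapped.

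Obox3, the embryonic member, had 2 counts in phthalate library 1 and 0 in the other 5 libraries. Those 2 counts would be a single read pair if both mates were counted. Obox6 had 0 counts in all 6 libraries. For Obox6, a count of 0 in 1676410 allows a share of up to 0.000179% (3 counts), or 1.79 CPM, and the limit is higher if both mates of a pair were counted. No fold between the groups is given for these genes.

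Obox7, the remaining maternal gene, had 47, 66 and 47 counts in the water libraries and 53, 43 and 47 in the phthalate libraries. Its CPM was 174, 219 and 166 against 210, 146 and 171. It was detected in every library, at a far lower level than Obox1, Obox2 and Obox5.

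**Figure D2:**
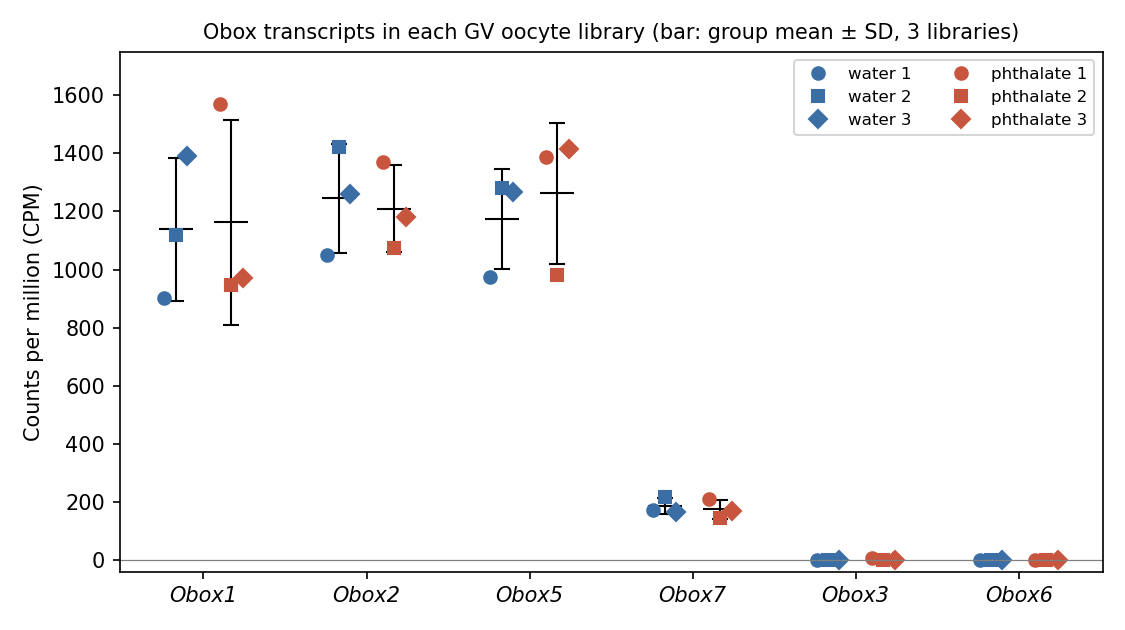
CPM of the 6 Obox genes in each library (points, water blue and phthalate red), with the mean and SD of the 3 libraries of a group (black bars). Obox1, Obox2 and Obox5 lie between 902 and 1570 CPM in all 6 libraries, Obox7 between 146 and 219, and Obox3 and Obox6 at or near 0.

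Divided by length, the 3 abundant members were near each other. The level per kb of the longest protein-coding transcript, averaged over all 6 libraries, was 841 ± 105 CPM per kb for Obox2 (SD, n = 6). It was 761 ± 180 for Obox1 and 665 ± 106 for Obox5. The SDs of neighbours in this order overlapped. The genes were measured in the same libraries and shared their low ones, so these SDs do not measure the spread of a difference between genes. Obox2 was the highest of the 3 in 4 of 6 libraries and Obox1 in the other 2, and Obox5 was the lowest in 5. Obox7 had 123 ± 19.0 CPM per kb, and its highest library (149) lay below the lowest library of Obox5 (533).

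The order of the 3 depended on the length used. With the shortest annotated protein-coding transcript Obox5 came first, at 1791 CPM per kb, against 1569 for Obox2 and 1535 for Obox1. Counting only the 150-base windows found in no other gene as length, Obox2 had 1391, Obox1 had 1230 and Obox5 had 724 CPM per kb. In that case the highest library of Obox5 (841) lay below the lowest of Obox1 (964). That last setting was added after the data were seen. It would apply if reads common to Obox1 and Obox2 had been dropped, which the sources used here do not say.

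Along the cluster, the 4 detected genes are the 4 on the plus strand, and the 2 on the minus strand were at or near 0. Obox3 lies between the abundant Obox1 and Obox5.

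**Figure D3:**
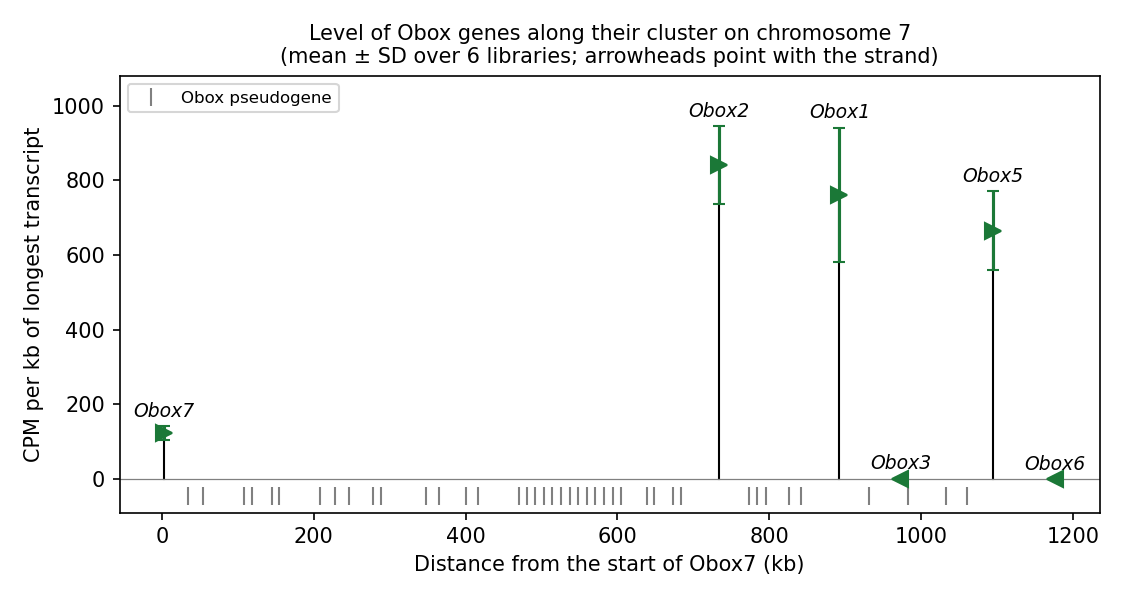
Mean CPM per kb of longest transcript (± SD over 6 libraries) of each Obox gene against its distance from the start of Obox7, with arrowheads pointing along the strand and grey ticks for Obox pseudogenes. Obox2, Obox1 and Obox5 stand at 841, 761 and 665, Obox7 at 123, and the minus-strand genes Obox3 and Obox6 at or near 0.

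Promoter windows of RefSeq (build GRCm38.p6, 250 bases before to 50 after the annotated start) were at hand for 5 of the 6 genes, Obox1, Obox2, Obox3, Obox5 and Obox7. All 5 hold the run gtgagaattaaggatttgaatattg. The bases around the end of that run follow, to show how the near-silent Obox3 compares with the detected genes, with capitals where a base differs from Obox1.
Obox1: aatattgcaagtgggtggagccagcgtgaa
Obox5: aatattgcaagtgggtggagccaAcgtgaa
Obox7: aatattgcaagtgggtggagccaAcgtgaa
Obox3: aatattgTaagtAggtggagccaAcgtgTG
The Obox1 stretch is chr7:15547177-15547206 (plus strand), beginning 80 bases before the start. The others are chr7:15750278-15750307 for Obox5, chr7:14659642-14659671 for Obox7 (both plus) and chr7:15639839-15639868 for Obox3 (minus). Obox2 has the same 30 bases as Obox1. Obox5 and Obox7 differ from Obox1 at 1 base each, and Obox3 at 5.

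Farther upstream, the longest run common to the 4 detected genes was searched with Obox3 left out. Their match there is thus fixed by that choice, and a weaker match in Obox3 follows from it. No conclusion about the levels is drawn from it. Obox1, Obox2, Obox5 and Obox7 share the 37-base run from which these first 30 bases are shown: ttttacattctgtcaggaactttcagagca. In Obox1 it is chr7:15547118-15547147 (GRCm38.p6, plus strand). The best ungapped match in the Obox3 window was identical at 16 of the 37 bases. The aligned parts of the windows were identical at 273 of 283 bases between Obox1 and Obox5 and at 153 of 164 between Obox1 and Obox3, so the Obox3 window aligns over a shorter part.

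The 4 short motifs searched here, chosen for this family with the levels already known, were matched by letter on both strands. The TATA-like TATATAA was found in the windows of Obox1, Obox5, Obox7 and Obox3 and in 3.24% of all 32851 windows. The Obox2 window had no match, but it covers a different stretch from those of its copies. The upstream run shared by the 4 detected genes begins 42 bases before the RefSeq start in Obox2 and 139 in Obox1. Whether TATATAA lies past the end of the Obox2 window was not examined. TAATCC, a core bound by homeodomains of the Otx class, occurred once in Obox3 and in no other Obox window, against 7.06% of all windows. TAATTG, a core known for the oocyte homeodomain factor NOBOX, was in none of the 5 Obox windows and in 8.0% of all. No other form of that core was searched. The E-box CANNTG was in all 4 windows of detected genes and not in that of Obox3, and 72.3% of all windows hold it. CANNTG reads the same on both strands and was counted once. A match is not a binding site, and these letters were not tested against the counts.

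Within the family each abundant member supplied about an equal part. Over all libraries Obox2 made up 34.2% of the members' counts (95% exact binomial interval 33.0 to 35.4), Obox5 33.9% (32.7 to 35.1) and Obox1 31.9% (30.7 to 33.1). Obox3 supplied 0.0333% and Obox6 none. These intervals, like all intervals given here, cover counting error only. Copies made by PCR, and mates of a pair, repeat the same molecule, so the true error is wider.

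The libraries differed in this composition. Obox5 took 39.7% (36.6 to 42.8) of the members' counts in phthalate library 3 and from 32.0% to 33.5% in the other 5 libraries. Obox1 took 27.2% (24.5 to 30.1) in phthalate library 3, 36.2% (33.3 to 39.1) in phthalate library 1 and 35.5% (32.7 to 38.4) in water library 3. Its values in the remaining libraries were 30.8%, 29.3% and 31.5% in water libraries 1 and 2 and phthalate library 2. The high and low values of Obox1 thus occurred in libraries of both groups or within the same group.

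Because Obox1 and Obox2 share sequence, their split was also taken alone. Obox1 made up 46.2%, 44.1% and 52.5% of the counts of the pair in the water libraries and 53.4%, 46.8% and 45.1% in the phthalate libraries. Water library 3 and phthalate library 1 were the libraries above 50%. Summed over a group, the value was 47.7% (45.5 to 49.9) for water and 48.8% (46.6 to 51.1) for phthalate, and the intervals overlapped.

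**Figure D4:**
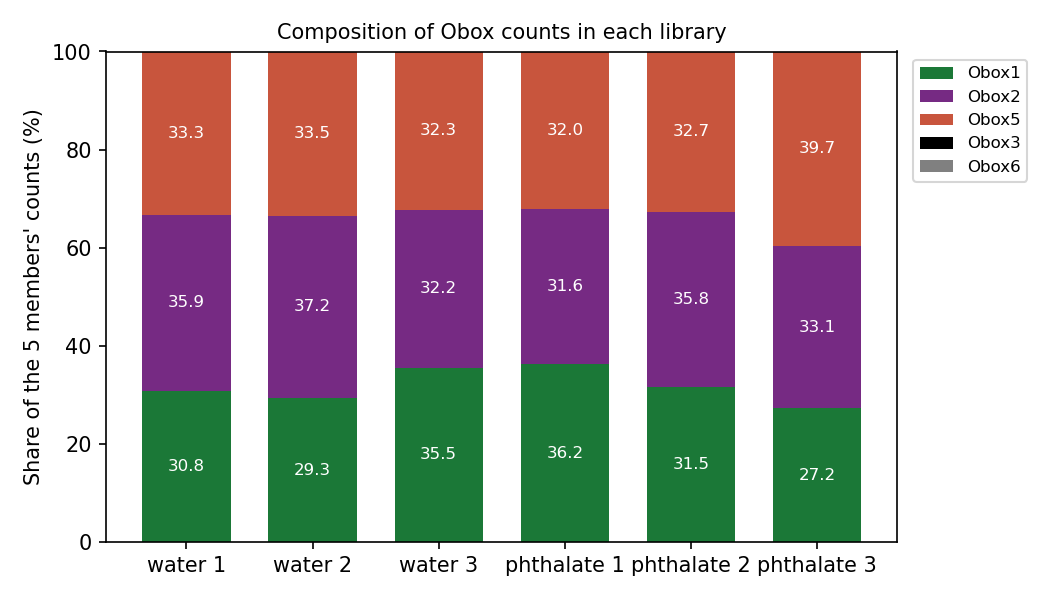
Share of the 5 members' counts in each library taken by each member (stacked bars, percent). Obox1, Obox2 and Obox5 each take between 27.2% and 39.7%, with the largest Obox5 share in phthalate library 3, and Obox3 (0.183% in phthalate library 1) and Obox6 (0) are too small to see.

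The 3 abundant members shared their low libraries. Each of the 3 had its lowest CPM in water library 1 and its second lowest in phthalate library 2. The highest library differed, being phthalate library 1 for Obox1, water library 2 for Obox2 and phthalate library 3 for Obox5. Summed over the 5 members, the level was 2928, 3822 and 3919 CPM in the water libraries and 4337, 3003 and 3568 CPM in the phthalate libraries. Water library 1 and phthalate library 2 also had the most counts of ERCC spike-ins (synthetic RNAs added in known amount), 753 and 498, against 292 to 443 in the others. They had 9615 and 9627 genes with a count, against 9190 to 9463. Counts of the 5 members per ERCC count were 1.05, 3.40 and 3.55 in the water libraries and 2.47, 1.78 and 3.36 in the phthalate libraries. All gene counts per ERCC count were 358, 890 and 907 against 569, 592 and 942, also lowest in water library 1. The part of these differences in the Obox levels was not tested.

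The abundant members differed in their spread between libraries. The coefficient of variation (SD over mean) of the normalized CPM over 6 libraries was 13.3% for Obox2, 18.4% for Obox5 and 22.8% for Obox1. The median was 16.1% over 139 genes with a mean count of 200 to 600, the range that holds these members. The family sum, with more counts than that range, had 15.9%. Of the 139 genes, 65.5% varied more than Obox2 and 20.9% more than Obox1. Within the water group the values were 16.99% for Obox2, 16.5% for Obox5 and 22.9% for Obox1 against a median of 12.5%, so all 3 lay above the median there. Within the phthalate group they were 12.2%, 22.3% and 27.6% against 16.7%. Counting error alone, on read pairs, would give 7.91% for Obox1 and 7.64% for Obox2.

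With the members themselves left out, 445 genes averaged 100 or more counts per library, and of these Pkd2l2 had the pattern over the 6 libraries most like that of the family sum. Log2 CPM was centred on each gene's mean, and likeness was the root-mean-square of the differences from the family over libraries. It was 0.063 for Pkd2l2, a polycystin channel family gene. Eloc, which encodes elongin C, followed with 0.115 and Sf3b1, a core splicing factor gene, with 0.115. The median gene had 0.297 and Obox7 had 0.168. The libraries share their depth and their composition across genes, so this is a description of 6 libraries.

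Between the groups, the summed level of the family was almost equal. The 5 members took 0.357% of the counts of the water group (95% exact interval 0.345 to 0.370) and 0.360% of those of the phthalate group (0.347 to 0.373). The mean over libraries was 3556 ± 546 CPM for water and 3636 ± 669 CPM for phthalate (SD, n = 3 libraries each). The log2 ratio of phthalate over water, from summed counts over totals scaled by TMM factors, was 0.029 (95% counting interval -0.044 to 0.10). On counts halved to read pairs the interval was -0.075 to 0.13.

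The sign of that small ratio rested on single libraries. It was -0.098 without water library 1, -0.084 without phthalate library 1 and -0.0080 without phthalate library 3. It was 0.19 without phthalate library 2, 0.10 without water library 2 and 0.10 without water library 3.

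Each abundant member had a ratio near 0 as well. The log2 ratio was 0.022 (-0.11 to 0.15) for Obox1, from 975 counts in the water group (exact Poisson interval 915 to 1038) and 942 in the phthalate group (883 to 1004). For Obox2 it was -0.042 (-0.17 to 0.085), from 1069 counts (1006 to 1135) and 988 (927 to 1052). For Obox5 it was 0.10 (-0.023 to 0.23), from 1007 counts (946 to 1071) and 1029 (967 to 1094). For Obox7 it was -0.090 (-0.43 to 0.24), from 160 and 143 counts.

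Leaving out a library turned the sign of each abundant member. Obox1 was -0.21 without phthalate library 1 and 0.19 without water library 3. It was -0.12 without water library 1 and 0.19 without phthalate library 2. Obox2 was 0.086 without water library 2 and 0.071 without phthalate library 2. Obox5 was -0.038 without phthalate library 3 and -0.018 without water library 1, and it was 0.30 without phthalate library 2, 0.19 without water library 2 and 0.16 without water library 3.

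Of the 5 members, 3 passed the filter on low counts, and 0 of the 3 differed by 1.5-fold or more between the groups. Of all 4644 genes past the filter, 15.1% did so in either direction. Of the 177 genes that averaged 200 or more counts per library, to which the 3 belong, 0 did so, and 90% of their log2 ratios lay between -0.33 and 0.37. The normalized CPM of the groups overlapped for all 3 members, and it did not overlap for 10.1% of the 4644 genes. The median log2 ratio over the 4644 genes was 0.0089. A counting interval that spans 0 does not show that the groups are alike, since the spread between animals is outside it.

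**Figure D5:**
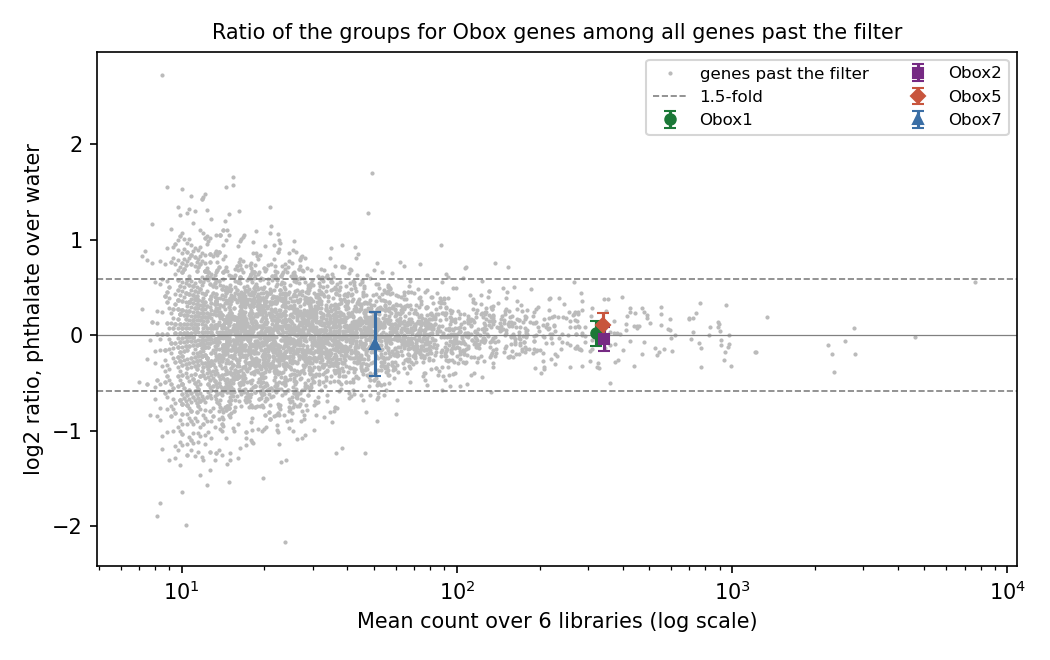
Log2 ratio of phthalate over water against mean count over 6 libraries (log scale) for the 4644 genes past the filter (grey), with Obox1, Obox2, Obox5 and Obox7 in colour and their 95% counting intervals. The 4 Obox genes lie between -0.090 and 0.10, inside the 1.5-fold lines (dashed).

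Other genes with a homeobox were lower in count than the abundant Obox genes. Of 72 listed, 70 were in the table, 39 had a count and 10 passed the filter. Nobox, a homeodomain regulator of oocyte genes, had the most, with 396 counts for water and 363 for phthalate. Meis2 had 263 and 234, Pou5f1 (OCT4) 217 and 203, and Zfhx3 153 and 134. Lhx8, a LIM homeobox gene needed for oocyte growth, had 136 and 143, and Satb1 100 and 117. All 70 together had 1805 counts for water and 1663 for phthalate, against 3051 and 2961 for the 5 Obox members.

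The median log2 ratio of these 10 genes was -0.075, with 3 higher and 7 lower in the phthalate group. The median ranged from -0.12 to -0.024 with each library left out in turn, and with no gene filter it was -0.15. Pou2f1 was the gene past 1.5-fold, with a log2 ratio of 0.80 (0.27 to 1.34) from 49 and 81 counts. Its counts were 9, 17 and 23 in the water libraries and 24, 29 and 28 in the phthalate libraries, and its groups did not overlap in normalized CPM. It was the 1 gene of the 10 without overlap, near the 10.1% of all filtered genes. None of the 10 was lower by 1.5-fold, where all filtered genes gave 6.96% higher and 8.14% lower.

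Genes linked to genome activation, the step at which Obox proteins act, were mostly low. Of 37 in the table, 24 had a count and 13 passed the filter, with a median log2 ratio of 0.084 (8 higher, 5 lower). With each library left out in turn the median ranged from 0.0045 to 0.14, and with no gene filter it was 0.010. Zbed3 supplied most of the counts, 14293 for water and 13378 for phthalate, and it is known as a maternal protein of the egg cortex and not as a gene first switched on in the embryo. Sp110 had 511 and 535 counts, and Klf17, a Krüppel-like factor of the oocyte and early embryo, had 505 and 509. Yap1 had 257 and 252, and Ctcf, an insulator protein gene, 121 and 144. The normalized CPM of Ctcf did not overlap between the groups and was higher for phthalate (log2 ratio 0.32, -0.036 to 0.68). Nr5a2 was the gene past 1.5-fold, with a log2 ratio of -0.64 (-1.26 to -0.046) from 64 and 39 counts, and its groups overlapped. Of the 13 genes, 1 was lower by 1.5-fold, against 8.14% of all filtered genes. The groups did not overlap for 2 of the 13, Ctcf and Trim24 (named after its values were seen), against 10.1% of all filtered genes.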

How the data were processed

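Counts per gene symbol for 6 Smart-seq3 libraries were deposited by the authors as whole numbers, not normalized. Per the submitters' processing notes the build was mm10 and the tools included cutadapt, Trimmomatic, HISAT2 and DESeq2. The counting tool, annotation, strand and handling of shared reads are not given in the sources used here. Counts of 2 were more frequent than counts of 1 in each library, so both mates of a pair may have been counted.

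The 92 ERCC rows stayed out of totals. CPM is a count divided by the library total times 1000000. Genes were filtered with edgeR 4.0.16 filterByExpr (minimum count 10, minimum total count 15, R 4.3.3), and TMM factors came from the 4644 genes kept. Group counts were summed over 3 libraries, divided by TMM-scaled totals and given as log2 ratios with the exact interval of both counts given their sum. The function was tested on simulated data. Alternatives were library totals, DESeq2 1.42.0 size factors, halved counts, means of libraries, no gene filter, other lengths, the family with Obox7, and each library left out. No 2 libraries of a group were alike within sampling noise (chi-square per degree of freedom 1.16 to 2.41 on read pairs).

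Sequences came from RefSeq (GRCm38.p6) and GENCODE M21, and alignments from Biopython 1.88. The RefSeq gene table held 25041 of the 25239 symbols. Named genes were the members, Obox7, the up to 6 genes of each list with the most counts, list genes past 1.5-fold (added after the values were seen) and the 3 genes of most similar pattern. The members and the lists were chosen with earlier results of these data known. Of these, 1 list gene is not reported here.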

Additional observations from a re-analysis of the deposited data

How the results depend on the processing

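No paired analysis was possible because the labels name no animal or culture that would pair libraries, and no result comes from a test. With each library left out in turn, the log2 ratio ranged from -0.098 to 0.19 for the family, from -0.21 to 0.19 for Obox1, from -0.16 to 0.086 for Obox2 and from -0.038 to 0.30 for Obox5. The difference in the family's share of counts, 0.0029 percentage points, ranged from -0.030 to 0.036. The difference in the share within the family (phthalate minus water) ranged from -2.71 to 2.13 percentage points for Obox1, from -3.30 to -0.35 for Obox2 and from -0.68 to 3.36 for Obox5. Levels per kb were 1535, 1569 and 1791 CPM for Obox1, Obox2 and Obox5 with the shortest transcript, and 1230 and 1391 for Obox1 and Obox2 over windows found in no other gene, because the length divided by is smaller. Of 94 alternatives, 73 stayed within the error of the value reported and 21 moved beyond it. Scaling by library totals or DESeq2 size factors, halved counts, means of libraries and the addition of Obox7 moved no result beyond it. With 252267 to 300917 counts per library, the depth allowed no fold for Obox3 (2 counts in all) and Obox6 (0).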
